A study of Mus musculus with 2 samples.

Results

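The matrix metalloproteinases (MMPs), the ADAMTS proteases and the tissue inhibitors of metalloproteinases (TIMPs) were examined in bulk RNA of the newborn mouse cranial suture. The members were all targets whose symbol is Mmp, Adamts or Timp followed by a number, except the 3 procollagen proteases Adamts2, Adamts3 and Adamts14. This gave 43 of 23930 targets, namely 23 MMPs, 16 ADAMTS genes and 4 TIMPs. The study deposited 2 libraries of 1 group: wildtype pups at postnatal day 3, covering the coronal, sagittal and lambdoid sutures and carrying the same batch number. The sources used here do not give strain, sex or how many pups went into a library. The labels name suture stem cells, but the protocol describes whole tissue and no sort. Both libraries held the suture mesenchyme genes Gli1 (32.0 and 64.4 CPM, read counts scaled so that each library sums to 1000000), Axin2 (32.7 and 60.6 CPM), Six2 (18.2 and 75.5 CPM) and Twist1 (124 and 72.8 CPM), beside the muscle, cartilage and blood genes given below. Of these 4, Twist1 alone had more CPM in library 1.

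MMPs and ADAMTS proteases are zinc enzymes that cut the proteins of the extracellular matrix. MMPs are made as inactive precursors, cut collagens, gelatin and many other matrix proteins, and are blocked by TIMPs. ADAMTS proteases cut proteoglycans such as aggrecan and versican, or assist fibrillin microfibrils, and Timp3 is the inhibitor best known to reach them. In growing bone, osteoclasts, hypertrophic chondrocytes and osteoblasts use these enzymes to open cartilage and osteoid for vessels and resorption.

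Library 1 held 5663344 reads and library 2 held 15802610, so 1 read was worth 0.177 and 0.0633 CPM. Each gene was read through 1 amplicon of a targeted panel, so CPM does not grow with gene length. Amplicons differ in efficiency, which makes a ranking of genes weaker than a comparison of 1 gene across libraries. With 1 group there was no condition to compare. The exact binomial tests below compare 2 libraries and cover counting error only, because there is 1 library on each side. The reads carry no molecular identifiers, so the tests treat copies of 1 molecule as separate reads. Separate animals for the 2 libraries are not stated in the labels, so the spread between them may be technical. The libraries differed far beyond counting error over 14280 targets with 20 or more reads (chi-square 77.7 per degree of freedom).

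Of the 43 members, 32 reached 1 CPM in both libraries, the level called detected here, against 55.0% of all targets. By family these were 14 of 23 MMPs, 14 of 16 ADAMTS genes and all 4 TIMPs. A mean of 10 CPM or more, called well measured here, was reached by 25 members, against 38.4% of all targets. The median member stood at 12.5 CPM and the median target at 3.29 CPM. The most reads per total came from the gelatinase gene Mmp9, the membrane-type Mmp14, the inhibitor Timp2, the collagenase gene Mmp13 and the gelatinase gene Mmp2, in this order of mean CPM. The MMPs covered the widest range, from 4 genes read in neither library to Mmp9, which ranked 31 and 44 among all targets of library 1 and library 2.

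**Figure D1:**
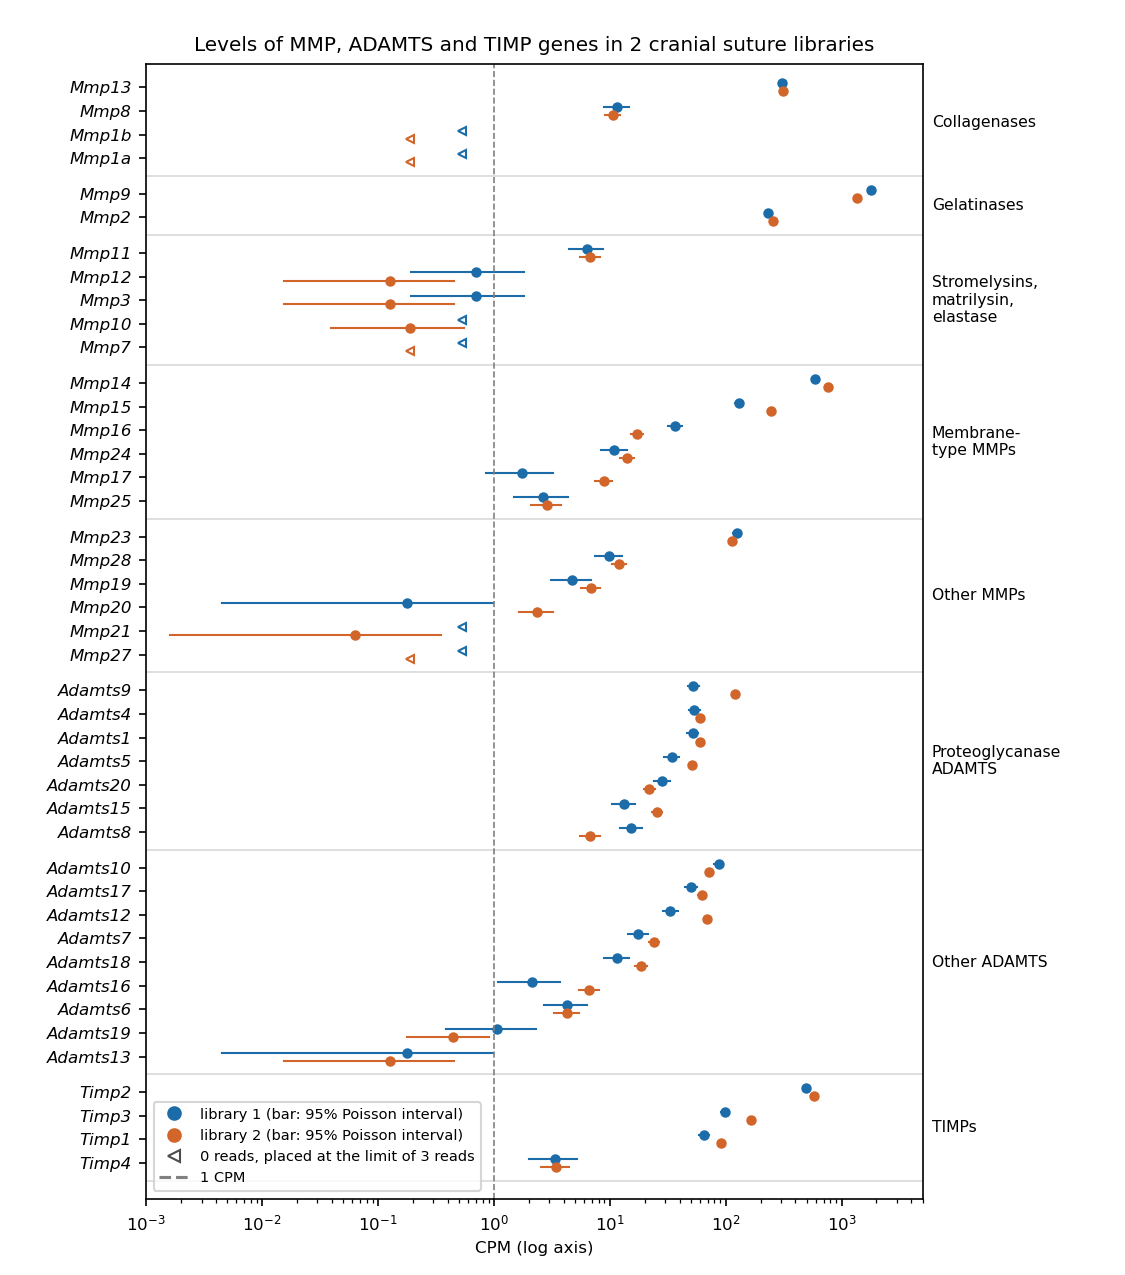
CPM of each MMP, ADAMTS and TIMP gene in library 1 and library 2 on a log axis, grouped by role, with exact 95% Poisson intervals of the reads and open triangles where a gene had 0 reads. Mmp9 lies highest at 1784 and 1354 CPM, no ADAMTS gene exceeds the 121 CPM of Adamts9, and Mmp1a, Mmp1b, Mmp7 and Mmp27 have no reads.

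Over the whole family, the differences between the libraries were of the size found for other genes. The exact test, adjusted over all targets, called 5 of the 43 members higher in library 1 and 16 higher in library 2, against 17.1% and 20.0% of all targets. Folds below are ratios of depth-scaled reads with exact 95% intervals. Calls depend on depth, so the 25 well-measured members are set beside the 9192 well-measured targets. Of these members 5 were higher in library 1 (20.0%) and 13 in library 2 (52.0%), and the test called 32.5% and 37.0% of targets. The remaining 7 well-measured members, Mmp13, Mmp8, Mmp23, Mmp24, Mmp28, Adamts1 and Adamts4, were not called. A difference of at least 2-fold was called for Mmp16 and Adamts8 toward library 1 and for Adamts9 and Adamts12 toward library 2, 2 of 25 each way, against 7.85% and 8.66% of targets. The shares at 2-fold are near the background. On the log2(CPM + 1) scale the median difference, library 2 minus library 1, was 0.26 over the 25 members and 0.05 over the well-measured targets. In 15 of the 25 members the difference was smaller in size than that of the median target (0.45).

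**Figure D2:**
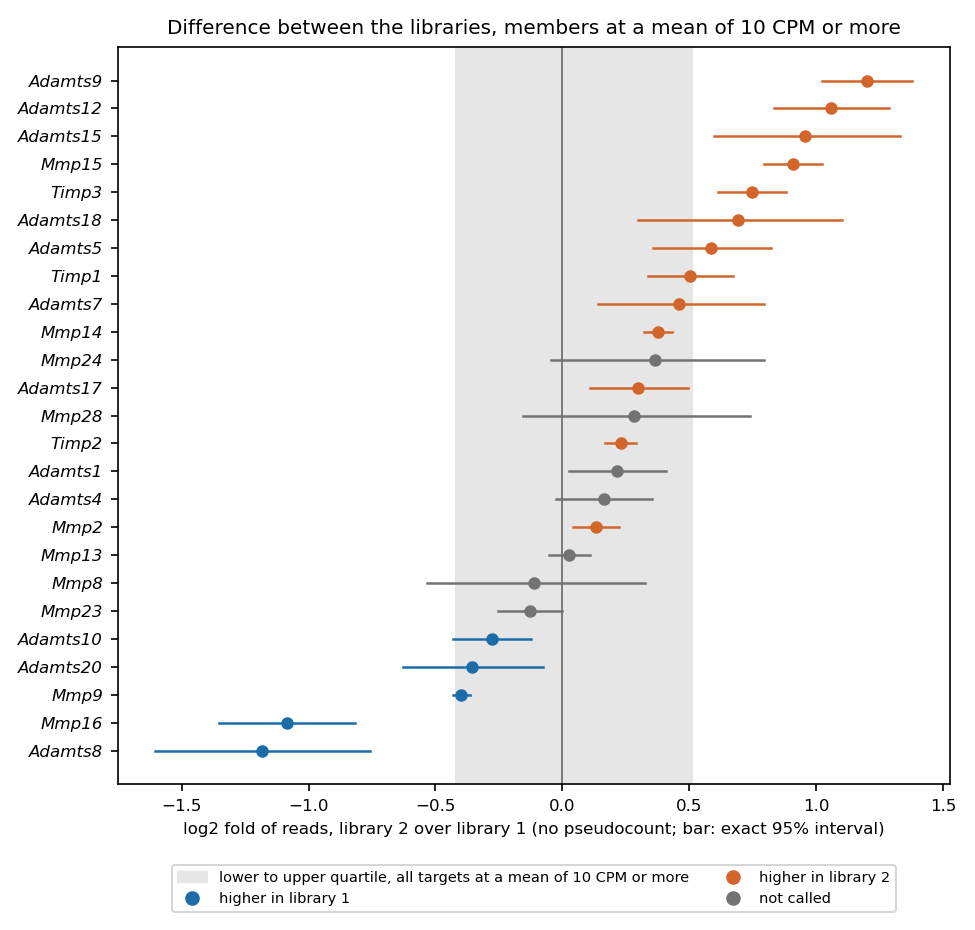
Log2 fold of reads of library 2 over library 1, without a pseudocount, for the 25 well-measured members, with exact 95% intervals and colours by the call of the binomial test; the band spans the lower to the upper quartile of all targets at that level (-0.42 to 0.51). Adamts9 and Adamts12 lie highest and Adamts8 and Mmp16 lowest, and Mmp13 lies near 0.

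Among the collagenases, which cut fibrillar collagen, Mmp13 carried nearly all reads. Mmp13, the collagenase of hypertrophic chondrocytes and osteoblasts, stood at 310 CPM in library 1 and 316 CPM in library 2 (mean 313 CPM ± 4.28, SD, n = 2). The libraries lay close together, and the exact binomial test did not call a difference (fold 1.02, interval 0.965 to 1.08, adjusted p = 0.770). Mmp8, the neutrophil collagenase, was at 11.5 and 10.6 CPM, also not called (fold 0.926, interval 0.692 to 1.25, adjusted p = 0.893, exact test). Mmp1a and Mmp1b, the interstitial collagenase genes of the mouse, had 0 reads in both libraries. With a limit of 3 reads, this allows levels up to 0.530 and 0.190 CPM. Mmp1a is annotated as a polymorphic pseudogene.

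Mmp13, Mmp8, Mmp1a and Mmp1b are neighbours in a cluster of 10 MMP genes on mm10 chromosome 9, from 7272514 to 7699585. In this stretch of 427 kb the annotation holds no other protein-coding gene. Along it the order is Mmp13, Mmp12, Mmp1b, Mmp3, Mmp1a, Mmp10, Mmp8, Mmp27, Mmp20 and Mmp7. Only 2 of these 10 genes, Mmp13 and Mmp8, were detected in both libraries, against 12 of the 13 MMP genes elsewhere, where Mmp21 was the exception. Mmp12, the macrophage elastase, and Mmp3, stromelysin 1, each had 4 reads in library 1 and 2 in library 2 (0.706 and 0.127 CPM). Mmp10, stromelysin 2, had 0 and 3 reads, and Mmp7, matrilysin, and Mmp27 had none. The genes on either side of the cluster were read in both libraries, Dcun1d5 at 41.7 and 27.7 CPM and Tmem123 at 71.0 and 88.5 CPM. Mmp13, at the edge of the cluster, was thus its most abundant member, and 7 of the 10 genes lay below 1 CPM in both libraries.

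**Figure D3:**
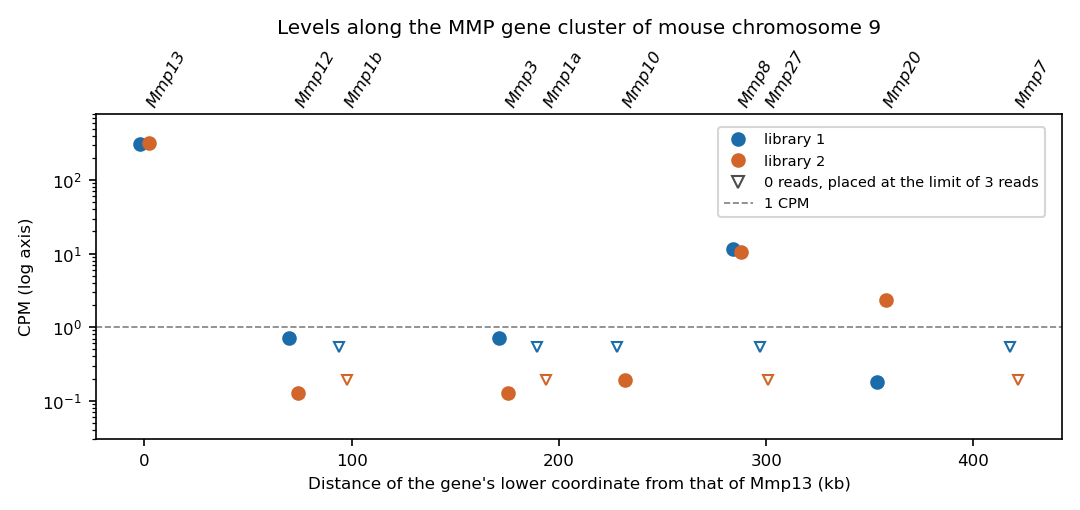
CPM on a log axis against distance in kb from Mmp13 for the 10 MMP genes of the chromosome 9 cluster, in library 1 and library 2, with open triangles at the limit of 3 reads where a gene had 0 reads. Mmp13 stands at 310 and 316 CPM and Mmp8 at 11.5 and 10.6 CPM, Mmp20 passes 1 CPM in library 2 only, and the other 7 genes lie below 1 CPM.

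The sequences just upstream of these genes are shown because they put the abundant Mmp13 beside neighbours with far fewer reads or none. No RefSeq promoter window on GRCm38.p6 (the mm10 build) was found for Mmp2, Mmp9, Mmp16, Mmp17 and Mmp19. The same held for Adamts4, Adamts5, Adamts6, Adamts7, Adamts8, Adamts10, Adamts15, Adamts16 and Adamts19. These genes could not be searched. Windows were found for the other 29 of the 43 members. Each was searched over 250 bases before the start for TGANTCA (with cytosine or guanine in its middle), the letters that AP-1 factors are known to bind, and for the TATA box letters TATAAA. These forms are reverse complements of each other, so both strands were covered. TATAAA was read on the gene's strand only, and no TGANTCA match overlapped a TATAAA match. TGANTCA was found upstream of 7 of the 10 cluster genes (all but Mmp8, Mmp20 and Mmp27) and of 0 of the 19 other members with a window, against 5.16% of 27025 genes. TATAAA was found upstream of 7 cluster genes (all but Mmp8, Mmp12 and Mmp27) and of 2 of the 19 others (Mmp21 and Adamts1), against 8.94% of genes. Below, the last 100 bases before the start are given 5′ to 3′ on the gene's strand for Mmp13, for 4 neighbours with both matches and at most 6 reads in all, and for Mmp8 and Mmp20, which were read without a TGANTCA match. Capitals mark the matches to either motif. All 7 genes are on the plus strand, and no base shown overlaps the gene's own annotation. Mmp1b also had both matches and 0 reads. Its window, on the minus strand and overlapping its own annotation by 21 bases, is not shown. The Mmp7 window shown belongs to the first of 2 RefSeq starts and lies within the antisense gene AV064505.
Mmp13 (chr9:7272414-7272513): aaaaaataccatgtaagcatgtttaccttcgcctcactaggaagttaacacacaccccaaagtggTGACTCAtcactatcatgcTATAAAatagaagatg
Mmp3 (chr9:7445722-7445821): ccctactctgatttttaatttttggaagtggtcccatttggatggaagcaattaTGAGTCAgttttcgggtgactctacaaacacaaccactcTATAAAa
Mmp1a (chr9:7464041-7464140): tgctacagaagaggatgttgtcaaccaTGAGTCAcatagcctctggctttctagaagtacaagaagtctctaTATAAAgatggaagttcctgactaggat
Mmp10 (chr9:7502242-7502341): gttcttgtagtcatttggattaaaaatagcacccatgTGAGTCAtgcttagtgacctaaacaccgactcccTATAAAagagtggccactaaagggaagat
Mmp7 (chr9:7691990-7692089): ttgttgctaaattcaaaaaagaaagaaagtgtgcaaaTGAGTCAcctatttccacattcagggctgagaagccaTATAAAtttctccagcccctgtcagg
Mmp8 (chr9:7558329-7558428): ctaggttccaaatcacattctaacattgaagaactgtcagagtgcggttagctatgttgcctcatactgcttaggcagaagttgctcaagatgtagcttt
Mmp20 (chr9:7628131-7628230): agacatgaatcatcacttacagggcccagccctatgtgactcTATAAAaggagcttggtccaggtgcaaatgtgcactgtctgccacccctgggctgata
The TGANTCA match begins 35 bases before the RefSeq start in Mmp13, 46 in Mmp3, 63 in Mmp10 and Mmp7 and 73 in Mmp1a. For Mmp10 and Mmp8 the bases after the window were not found in a GENCODE transcript of the gene. GENCODE places these 2 genes from 7502352 and 7558456, so their windows and the Mmp10 distance are less certain. The TGANTCA letters were thus shared by Mmp13, at 313 CPM, and by genes with 0 reads. A match is a description of the letters and does not show that a factor binds there.

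The gelatinases, which cut denatured collagen and basement membrane collagen, were the highest class by summed reads. Mmp9 (mm10 chromosome 2, 164940780 to 164955850), the gelatinase of osteoclasts and neutrophils, was at 1784 CPM in library 1 and 1354 CPM in library 2 (mean 1569 CPM ± 304, SD, n = 2). It was 1.32-fold higher in library 1 (interval 1.29 to 1.35, adjusted p = 1.79e-109, exact binomial test). The size of this difference was ordinary, since 44.5% of well-measured targets differed by less. Mmp9 took 54.7% of all MMP reads in library 1 (exact interval 54.0 to 55.4) and 43.2% in library 2 (42.7 to 43.6). Mmp2, the gelatinase of mesenchymal cells, was at 232 and 254 CPM, or 7.11% and 8.09% of MMP reads. Its difference was small and was called (1.10-fold higher in library 2, interval 1.03 to 1.17, adjusted p = 0.0133, exact test), but adjusted p was 0.0717 with TMM scaling and 0.104 with DESeq2 size factors in the same test.

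Genes known from the cells that make Mmp9 were read beside it. All 8 osteoclast markers were detected, with sums of 1461 and 807 CPM. That difference lay in Acp5, the tartrate-resistant acid phosphatase, at 1299 and 622 CPM. The 7 other osteoclast markers summed to 163 and 184 CPM, and of these only Atp6v0d2 was called, toward library 2. Itgb3 came next, at 52.6 and 56.0 CPM. Of 8 neutrophil markers, 7 were detected, led by Ngp (433 and 122 CPM) and Ltf (99.4 and 235 CPM), with 1124 and 592 CPM in sum. All but Ltf were higher in library 1, while the neutrophil gene Mmp8 was nearly level. Of 7 macrophage markers, 6 were detected, led by Lyz2 (308 and 157 CPM) and Cd68 (136 and 133 CPM), with 602 and 439 CPM in sum, and C1qa had 0 and 3 reads. Without Lyz2 the sums were 295 and 282 CPM. Of these 6 markers, 3 were called toward library 1 and 1, Csf1r (68.0 and 93.8 CPM), toward library 2. The part of these cells in the levels of Mmp9 and Mmp8 was not tested. In bulk libraries, fewer cells of a type and less RNA per cell cannot be told apart.

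**Figure D4:**
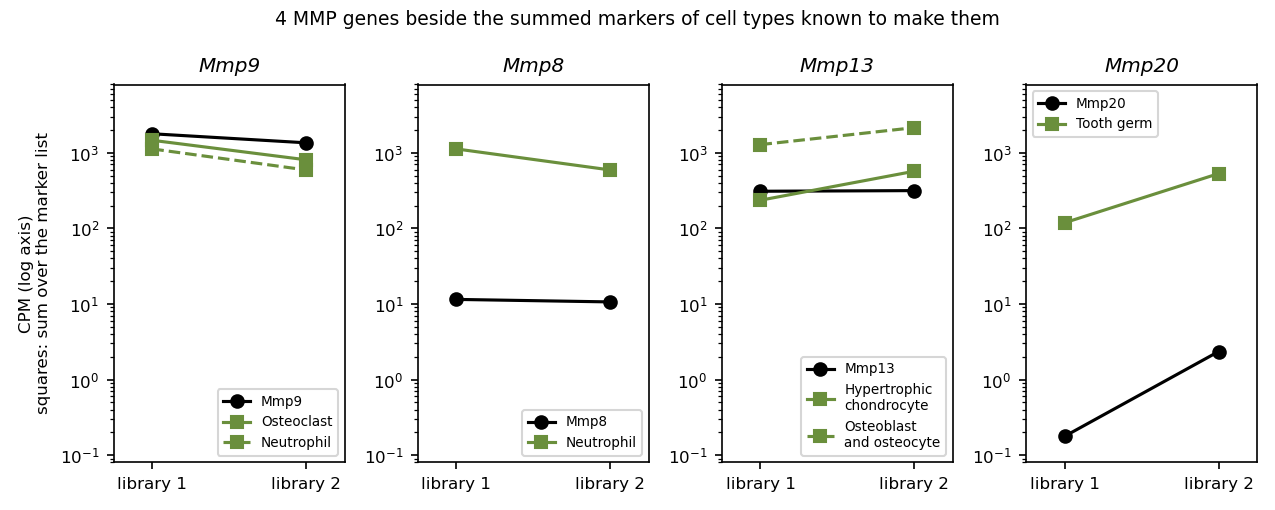
CPM on a log axis in library 1 and library 2 for Mmp9, Mmp8, Mmp13 and Mmp20 (circles) beside the summed CPM of marker lists of cell types known to make them (squares); lines join the 2 libraries of 1 list or gene. Mmp9 and the osteoclast and neutrophil sums are higher in library 1. The osteoclast difference lies in Acp5 (1299 and 622 CPM), and the 7 other osteoclast markers sum to 163 and 184 CPM. Mmp13 and Mmp8 are nearly level while their marker sums differ, and Mmp20 and the tooth germ sum are higher in library 2.

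Mmp13 was level while the markers of its known sources were not. The 4 hypertrophic chondrocyte markers, Col10a1, Ihh, Pth1r and Panx3, were all higher in library 2, with sums of 236 and 570 CPM. Of 6 osteoblast and osteocyte markers, 5 were detected and higher in library 2, led by Ibsp (386 and 873 CPM) and Dmp1 (419 and 598 CPM), while Mepe was at 0 and 0.506 CPM. Their sums were 1282 and 2150 CPM. Whether Mmp13 reads came from these cells was not tested.

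The membrane-type MMPs, which act at the cell surface, were all detected. Mmp14 (mm10 chromosome 14, 54431612 to 54445364), which cuts collagen around cells and activates the Mmp2 precursor with the help of Timp2, stood at 594 CPM in library 1 and 771 CPM in library 2 (mean 683 CPM ± 125, SD, n = 2). It was 1.30-fold higher in library 2 (interval 1.25 to 1.35, adjusted p = 4.88e-41, exact binomial test). Mmp15, the next membrane-type gene by mean CPM, was at 131 and 245 CPM and thus 1.88-fold higher in library 2 (interval 1.73 to 2.03, adjusted p = 1.48e-61, exact test). In library 1 the interval of Mmp15 (122 to 141 CPM) overlapped that of Mmp23 (116 to 135 CPM), and in library 2 (238 to 253 CPM) it overlapped that of Mmp2 (246 to 262 CPM).

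Mmp16 went the other way, with 36.6 CPM in library 1 and 17.2 CPM in library 2 (2.12-fold, interval 1.76 to 2.55, adjusted p = 2.43e-14, exact test). Mmp24, known from neurons, was at 10.9 and 14.1 CPM and was not called. The GPI-anchored forms were low. Mmp17 had 10 reads in library 1 and 141 in library 2 (1.77 and 8.92 CPM), a 5.05-fold difference (interval 2.67 to 10.8, adjusted p = 5.53e-09, exact test), and Mmp25, known from leukocytes, was at 2.65 and 2.85 CPM. Of the 6 membrane-type genes, 3 were thus called toward library 2 and 1 toward library 1, against 20.0% and 17.1% of all targets. Of the 4 well-measured ones, 2 and 1 were called in these directions, against 37.0% and 32.5% of well-measured targets.

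Of the remaining MMPs, Mmp23, a small transmembrane form without the usual hemopexin domain, was well measured at 125 and 115 CPM (mean 120 CPM ± 7.53, SD, n = 2). It was not called with library totals (adjusted p = 0.114, exact test), but it was called higher in library 1 with TMM scaling (adjusted p = 0.0398) and DESeq2 size factors (adjusted p = 0.0294) in the same test. Mmp28, epilysin, was at 9.89 and 12.0 CPM, Mmp11, stromelysin 3, at 6.36 and 6.77 CPM and Mmp19 at 4.77 and 6.83 CPM, none of them called. Mmp21, a gene of left-right patterning in the embryo, had 0 reads in library 1 and 1 in library 2.

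Mmp20, the enamel protease of ameloblasts, had 1 read in library 1 and 37 in library 2 (0.177 and 2.34 CPM). The ratio was 13.3 with an exact interval from 2.24 to 538, and adjusted p was 0.00109 in the exact test. It was detected in library 2 only. All 6 tooth germ markers, led by Amelx (91.3 and 380 CPM) and Ambn (17.3 and 111 CPM), were higher in library 2, with sums of 118 and 529 CPM. Klk4, the other enamel protease, and Odam had 0 reads in library 1. The part of tooth tissue in the Mmp20 reads was not tested.

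The ADAMTS genes were spread more evenly than the MMPs. The 7 proteoglycanase genes, which cut aggrecan, versican and related proteoglycans, were all well measured, with means from 11.1 CPM (Adamts8) to 87.0 CPM (Adamts9). Adamts9 took 11.5% of ADAMTS reads in library 1 (exact interval 10.3 to 12.8) and 20.0% in library 2 (19.2 to 20.8). Adamts10 led in library 1 with 19.1% (17.6 to 20.7) and took 11.9% (11.3 to 12.6) in library 2. The leading ADAMTS gene therefore differed between the libraries.

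Adamts9 (mm10 chromosome 6, 92772699 to 92943492) was at 52.8 CPM in library 1 and 121 CPM in library 2 (2.30-fold, interval 2.03 to 2.60, adjusted p = 2.30e-47, exact binomial test). A smaller difference was found for 90.3% of well-measured targets. Adamts5, the main aggrecanase of mouse cartilage, was at 34.3 and 51.4 CPM (1.50-fold, interval 1.28 to 1.77, adjusted p = 8.08e-07, exact test). Adamts4, the other main aggrecanase, was at 53.9 and 60.3 CPM and Adamts1 at 51.9 and 60.3 CPM. Neither was called (adjusted p = 0.198 and 0.0645, exact test), although Adamts1 was called with adjusted p = 0.0327 in that test when the 10 highest targets were left out of the totals. Adamts20, the gene of the belted coat mutation in the mouse, was at 28.1 and 22.0 CPM and called higher in library 1 (adjusted p = 0.0331, exact test), but not without the 10 highest targets (adjusted p = 0.0553, exact test).

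Adamts8 and Adamts15 are neighbours on chromosome 9, with 20.1 kb and no protein-coding gene between them. They differed in opposite directions. Adamts8 was 2.27-fold higher in library 1 (15.4 against 6.77 CPM, interval 1.69 to 3.04, adjusted p = 1.95e-07, exact test). Adamts15 was 1.94-fold higher in library 2 (13.2 against 25.7 CPM, interval 1.51 to 2.52, adjusted p = 1.22e-07, exact test). Adamts1 and Adamts5, neighbours on chromosome 16 at a distance of 53.1 kb, both had more CPM in library 2, with Adamts5 alone called.

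The substrates of these proteases were read too. Of 7 proteoglycan and matrix substrates, all well measured, the exact test called 3 toward library 1 and 4 toward library 2. It called 32.5% and 37.0% of well-measured targets in these directions. The highest were Bgn, biglycan, at 1775 and 986 CPM, and Dcn, decorin, at 775 and 608 CPM, both called toward library 1. Acan, aggrecan, was at 344 and 840 CPM, Vcan, versican, at 133 and 242 CPM and Comp at 71.7 and 213 CPM, and the exact test called these 3 toward library 2. All 8 chondrocyte markers, Acan and Comp among them, were higher there too, with sums of 1546 and 4646 CPM, led by Col2a1 (407 and 2078 CPM) and Col11a2 (453 and 1041 CPM). The part of cartilage in the ADAMTS levels was not tested.

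Among the other ADAMTS genes, 7 of 9 were detected. Adamts10 and Adamts17, which are tied to fibrillin microfibrils, were at 87.4 and 72.1 CPM and at 50.5 and 62.1 CPM. The exact test called Adamts10 1.21-fold higher in library 1 (adjusted p = 0.00152) and Adamts17 1.23-fold higher in library 2 (adjusted p = 0.00604). Adamts6, a close relative of Adamts10, was at 4.24 CPM in each library. Adamts12 and Adamts7, a pair known to cut Comp, were both higher in library 2. Adamts12 stood at 33.4 and 69.5 CPM (2.08-fold, interval 1.78 to 2.44, adjusted p = 1.30e-22, exact test) and Adamts7 at 17.7 and 24.3 CPM (1.38-fold, adjusted p = 0.0122, exact test).

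Adamts18 (11.5 and 18.5 CPM) and its relative Adamts16 (2.12 and 6.64 CPM) were also higher in library 2 (adjusted p = 0.00119 and 9.90e-05, exact test). Adamts19 had 6 and 7 reads and passed 1 CPM in library 1 only. Adamts13, the von Willebrand factor protease made mainly in the liver, had 1 and 2 reads. These were the 2 ADAMTS genes not detected in both libraries.

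All 4 TIMPs were detected, and 1 led. Timp2 (mm10 chromosome 11, 118301069 to 118355740), an inhibitor that also helps Mmp14 to activate the Mmp2 precursor, was at 490 CPM in library 1 and 575 CPM in library 2 (mean 532 CPM ± 59.8, SD, n = 2). It took 74.6% of TIMP reads in library 1 (exact interval 73.2 to 76.0) and 68.8% in library 2 (68.0 to 69.6). Timp3, which is bound to the matrix, was at 98.7 and 165 CPM, and Timp1, a secreted inhibitor that acts weakly on membrane-type MMPs, at 64.8 and 91.9 CPM. These 3 genes were higher in library 2, Timp2 1.17-fold (interval 1.12 to 1.22, adjusted p = 1.07e-12), Timp3 1.68-fold (1.53 to 1.84, adjusted p = 4.30e-30) and Timp1 1.42-fold (1.26 to 1.59, adjusted p = 5.44e-09), each in the exact binomial test. Timp4, known from heart and brain, was at 3.36 and 3.42 CPM and was not called. Of the 4 TIMPs, 3 were thus called toward library 2 and 0 toward library 1, against 20.0% and 17.1% of all targets. These 3 are the well-measured TIMPs, and 37.0% and 32.5% of well-measured targets were called in these directions. Summed TIMP reads were 0.201 of summed MMP reads in library 1 and 0.266 in library 2, a ratio of reads over different amplicons.

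In the annotation, 3 of the TIMP genes lie wholly within a synapsin gene on the opposite strand, Timp1 in Syn1, Timp3 in Syn3 and Timp4 in Syn2. Synapsins are proteins of nerve endings. Timp1 and Timp3 stood above their hosts, which were at 4.06 and 22.1 CPM (Syn1) and at 2.12 and 8.54 CPM (Syn3). Timp4 stood below its host Syn2, at 27.0 and 31.5 CPM. Adamts7 (with Tbc1d2b), Mmp11 (with Chchd10), Mmp19 (with Tmem198b) and Mmp24 (with BC029722) overlap in part with another gene on the opposite strand. In these 4 pairs the other gene was higher in both libraries, with the largest gap for Chchd10 (181 and 153 CPM). Other pairs went the other way. Adamts9 (52.8 and 121 CPM) stood above A730049H05Rik (1.06 and 0.633 CPM), which overlaps it on the opposite strand. Mmp28 (9.89 and 12.0 CPM) likewise stood above 1700020L24Rik, at 0 CPM in both libraries. Timp2 overlaps Cep295nl on its own strand, and Cep295nl has no level here. The sources used here give neither the strand setting of the counting nor the amplicon positions, so reads of genes whose exons overlap may not be told apart and such levels are less certain. No exon of Syn1 touches Timp1.

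Other genes of the pathway were read from lists of activators, inhibitors and relatives. Of 16 genes that activate, induce, inhibit or clear these proteases, 14 were detected. The exact test called 9 of the 16 toward library 2 and 4 toward library 1, against 20.0% and 17.1% of all targets. Of the 13 well-measured ones, 8 and 4 were called in these directions, against 37.0% and 32.5% of well-measured targets. The highest of the 16 were Lrp1, the receptor that clears many proteases, at 329 and 954 CPM, and Bsg, an inducer of MMPs, at 500 and 419 CPM. Reck, a membrane inhibitor of MMPs, was at 52.6 and 96.9 CPM, and Furin, which removes the propeptide of membrane-type MMPs and ADAMTS proteases, at 44.3 and 189 CPM. Plau and its receptor Plaur, which generate plasmin at the cell surface, were higher in library 1 (26.0 against 13.3 CPM and 37.8 against 18.1 CPM), while Plg, the plasminogen gene itself, had 1 read in each library.

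All 7 ADAMTS-like genes measured, relatives without a protease domain, were detected. Of these, 3 were called toward library 2 and 0 toward library 1, against 20.0% and 17.1% of all targets, and 4 were not called. Of the 4 well-measured ones, 2 and 0 were called in these directions, against 37.0% and 32.5% of well-measured targets. The highest were Thsd4 (8.83 and 58.2 CPM) and Adamtsl4 (33.9 and 29.2 CPM). Of 9 ADAM genes, the sheddase relatives, 7 were detected. The exact test called 7 of the 9 toward library 2 and Adam17 toward library 1, beside 20.0% and 17.1% of all targets. The 5 well-measured ADAM genes were all called toward library 2, beside 37.0% of well-measured targets. Adam12 (48.0 and 128 CPM) and Adam10 (55.3 and 67.5 CPM) led.

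The libraries also differed in markers of other tissues. All 7 skeletal muscle markers, led by Mylpf and Acta1, were higher in library 1, summing to 39317 CPM against 11915 CPM, and 3 of 5 endothelial markers, Pecam1, Kdr and Emcn, were higher there too. The endothelial sum was 601 and 443 CPM, and Cdh5, the next after Pecam1, was not called (212 and 215 CPM). Neuron and glia markers (250 and 885 CPM, led by Tubb3 and Mbp), olfactory neuron markers (94.5 and 493 CPM, led by Omp and Adcy3) and smooth muscle and pericyte markers (380 and 609 CPM, led by Pdgfrb and Cspg4) were in sum higher in library 2, with 6 of 7, 5 of 5 and 4 of 5 genes called in that direction. Keratinocyte markers summed to 92.7 and 88.3 CPM, but Krt15 and Krt5 were called toward library 2, and Krt14 (22.2 and 5.57 CPM) and Krt1 (19.1 and 0.190 CPM) toward library 1. Over all targets, the exact test called 17.1% toward library 1 and 20.0% toward library 2. Over well-measured targets the shares were 32.5% and 37.0%. No gene measured from these 6 lists was at 0 in either library. The part of these tissues in the members' differences was not tested.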

How the data were processed

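The authors deposited CPM values for 23930 amplicon targets, 1 per gene symbol, scaled to each library's total, as the column sums show. Libraries were built with a targeted mouse transcriptome amplicon panel (Ion AmpliSeq) per the labels' protocols, and the submitters' processing notes name the build mm10. Aligner, counter and filters: not given in the sources used here. All deposited CPM values (100%) were whole multiples of the library's smallest step, to 0.01 read, and whole reads were recovered from them (5663344 and 15802610). A date stood in place of 27 symbols, restored from target names.

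From these, mean and SD of CPM, exact 95% Poisson and Clopper-Pearson intervals, and exact two-sided binomial tests of reads between the libraries were computed (Python 3.11.15, scipy 1.17.1), adjusted by Benjamini and Hochberg over all 23930 targets at a threshold of 0.05, so an adjusted p here covers all targets. The test was checked on simulated reads that held counting error only. That check does not cover differences between libraries beyond counting error. A limit of 3 reads was used for 0 reads, and a pseudocount of 1 CPM for log2 differences. Alternatives were edgeR 4.0.16 TMM factors, DESeq2 1.42.0 size factors, totals without the 10 highest targets, and other thresholds and pseudocounts. edgeR and DESeq2 gave scaling factors only, since 1 library on each side leaves no replicates for their tests.

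Positions came from GENCODE M21 (GRCm38, the mm10 assembly) and promoters from RefSeq. Protein features that had been planned were not analysed here. The members and gene lists were chosen with earlier results of these data known. All members are named. From the other lists the 2 genes of highest mean CPM are named and those a result turns on. Vcan, Reck, Furin, Plau, Plaur, Plg, Adam17, Csf1r, Kdr, Emcn, Krt14 and Krt1, and the neighbouring and overlapping genes, were chosen after their values were seen. 1 further overlap of a member with another gene is not reported here.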

Additional observations from a re-analysis of the deposited data

How the results depend on the processing

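The count of detected members, 32, was 32 at 0.5 CPM, 31 at 2 CPM, 23 at 10 CPM and 34 where either library sufficed, and it was 33 without replicate 1 and 33 without replicate 2. Members called higher in library 1 and library 2 numbered 5 and 16, and 6 and 15 with TMM scaling or DESeq2 size factors, 4 and 17 without the 10 highest targets, and 5 and 17 when targets below a mean of 1 CPM were left untested. With a 2-fold minimum these counts dropped to 2 and 5. The 25 well-measured members were recomputed under the 3 scalings, and 67 of 75 differences kept direction and side of the threshold. Mmp13, not called, changed sign from 0.028 to -0.0017 (TMM) and -0.0095 (DESeq2 factors) on the log2 scale. In the other 6, Mmp2 (with TMM or DESeq2 factors) and Adamts20 (without the 10 highest targets) were no longer called, and Mmp23 and Adamts1 became called, as the report states. The scaling alone sets these changes, since the reads were the same, and pseudocounts of 0.5 and 5 CPM cannot move a call. The highest MMP took from 43.2% to 54.7% of MMP reads, the highest ADAMTS gene by mean from 11.5% to 20.0% and the highest TIMP from 68.8% to 74.6%, with each library taken alone, and the TIMP to MMP ratio ran from 0.201 to 0.266. Depth limits the 11 members not detected in both libraries, where 1 read is worth 0.177 CPM in library 1. A comparison between the libraries has no version with 1 library left out.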
